A study of Mus musculus with 4 samples.

Results

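Calretinin, calbindin and parvalbumin are among the proteins most often stained to tell neuron types of the retina apart, and 10 genes of calcium-binding and calcium-sensor proteins were followed here: Calb1, Calb2, Pvalb, Necab1, Necab2, Pcp4, Pcp4l1, Ncald, Hpca and Hpcal1. They were chosen by name from 55471 genes in the count table. The RNA came from sorted amacrine cells (inhibitory neurons that shape the signals passed from bipolar to ganglion cells) of C57BL6 mice at postnatal days 6 to 7. All mice carried Gbx2-CreERT2-IRES-EGFP, in which the Gbx2 locus drives a tamoxifen-inducible Cre recombinase and the green protein EGFP, together with Ai9, a reporter that turns on red tdTomato for good once Cre has been active in a cell. The GFP-positive fraction (cell type 2 of the series, replicates 2 and 3) and the GFP-negative fraction (cell type 1, replicates 2 and 6) both held tdTomato, so GFP-negative cells are not cells without a history of Cre activity. EGFP reports activity of the Gbx2 locus. GFP-negative replicates 2 and 6 still held 1199 and 1988 Gbx2 counts, against 27524 and 23596 in GFP-positive replicates 2 and 3. Each RNA sample is stated to hold 750 to 2500 cells, with 3 litters giving 4 biological replicates; 2 libraries per fraction were analysed here, and the timing of tamoxifen is not given in the labels.

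Most of these proteins hold EF-hands, the helix-loop-helix fold that binds calcium. Calretinin, calbindin and parvalbumin act mainly as buffers that bind calcium as it enters the cell, whereas hippocalcin and its relatives are sensors that change shape and move to membranes when calcium rises. Pcp4 and Pcp4l1 do not hold the EF-hand fold. Pcp4 binds calmodulin, the general calcium sensor, through an IQ motif. In the mouse retina calretinin stains starburst and other amacrine cells and ganglion cells, calbindin stains horizontal cells strongly, and parvalbumin is best known in ganglion cells.

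The libraries held 41040667 to 44689917 counts, with 21363 to 22626 genes detected. No pair of libraries was alike within sampling noise (chi-square of 105 to 391 per degree of freedom over genes). The smallest value, 105, was across the fractions, between GFP-positive replicate 2 and GFP-negative replicate 2. The GFP-positive pair gave 120 and the GFP-negative pair 133, and the other pairs across the fractions gave 174 to 391. Levels are CPM, read counts scaled by the effective library size, with mean ± SD over 2 libraries. Fold changes are GFP-positive over GFP-negative. The gene whose locus drives EGFP followed the sort: Gbx2 had 602 and 496 CPM in GFP-positive replicates 2 and 3, against 28.7 and 55.5 CPM in GFP-negative replicates 2 and 6. Its log2 fold change was 3.71 ± 0.44 (SE; adjusted p = 0.0118, edgeR's quasi-likelihood test with Benjamini-Hochberg adjustment over all genes tested). Leaving out GFP-positive replicate 3 gave an adjusted p of 0.0603, and leaving out GFP-negative replicate 6 gave 0.0711. The 12 pan-amacrine markers, led by Pax6, summed to 3133 and 2083 CPM in the GFP-positive libraries, against 4753 and 6537 CPM in the GFP-negative libraries. Of these, 5 fell and 0 rose at an adjusted p under 0.05 in edgeR, and 9 were lower and 1 higher at an unadjusted p under 0.05. Slc6a9 had 85.8 and 74.7 CPM in the GFP-positive libraries, against 54.3 and 31.4 CPM in the GFP-negative libraries. The ranges of Pax6 and Snhg11 overlapped. The 15 rod markers, led by Sag, summed to 9727 and 15973 CPM in the GFP-positive libraries, against 8484 and 2030 CPM in the GFP-negative libraries. None of the rod markers passed in edgeR, DESeq2 or limma-voom, and 4 were higher at an unadjusted p under 0.05 in edgeR. Both fractions carried amacrine and rod transcripts, and the rod sum was lowest in GFP-negative replicate 6. The part of these markers in the results below was not tested. In bulk RNA, fewer cells of a type and less RNA per cell cannot be told apart.

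Of the 10 genes, 9 had enough counts to be tested and Pvalb did not. Calb2 rose and Pcp4l1 fell in GFP-positive cells at an adjusted p under 0.05, and 7 did not pass. In edgeR's legacy quasi-likelihood fit, the default of the version used, Calb2 passed (adjusted p = 0.0405) and Pcp4l1 did not (adjusted p = 0.0591). Over all 17940 genes tested, 0.234% were called higher and 0.87% were called lower, 198 genes in all. The CPM ranges of the fractions did not overlap for 6 of the 9 genes, beside 43.8% of all genes tested. Calb2 and Pcp4 lay higher in both GFP-positive libraries, and Necab1, Necab2, Pcp4l1 and Hpcal1 lay lower. The median log2 fold change of the 9 was -0.03, beside 0.04 for all genes tested. Of the 9 values, 4 were positive and 5 negative. With 2 libraries against 2, an exact two-sided permutation test of a single gene cannot give a p below 0.333, so calls rest on the spread that edgeR shares across genes.

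**Figure D1:**
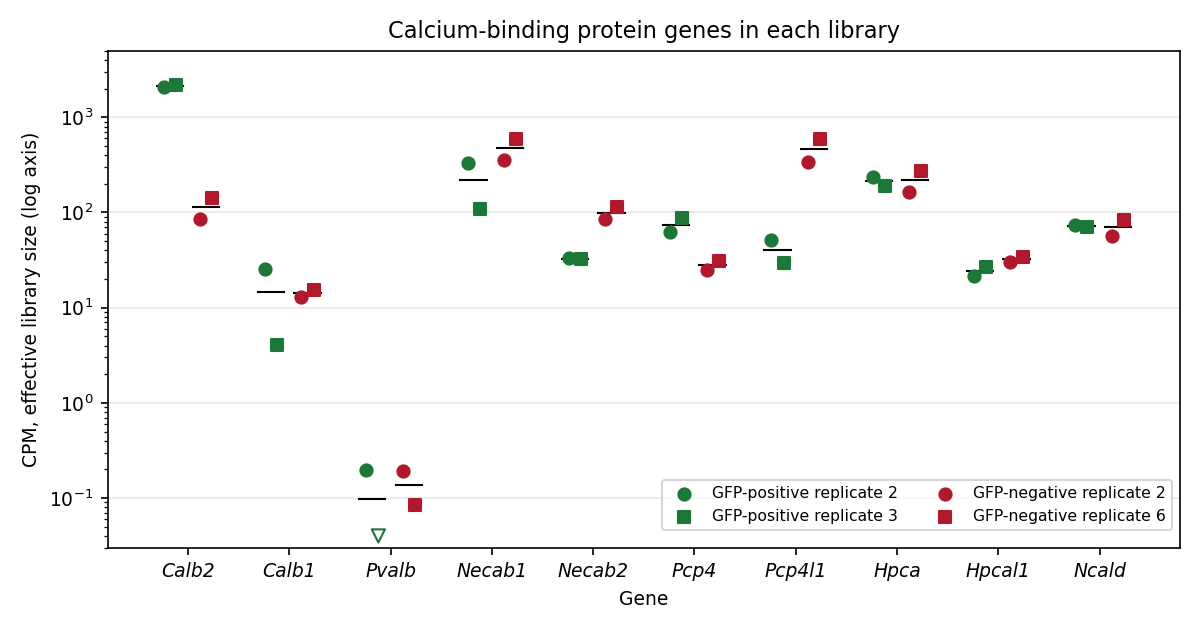
CPM of the 10 genes (log axis) in each library, GFP-positive left of GFP-negative, with dashes for the mean of 2 libraries; the open triangle marks a count of 0 for Pvalb in GFP-positive replicate 3. Calb2 and Pcp4l1 show the widest gaps between the fractions, in opposite directions.

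Among the buffers, Calb2, which encodes calretinin (ENSMUSG00000003657, minus strand, chr8:110137502-110168210, GRCm38), had the highest level per kilobase of the 10 genes in GFP-positive cells. It had 2098 and 2195 CPM in GFP-positive replicates 2 and 3, against 84.4 and 142.9 CPM in GFP-negative replicates 2 and 6. Both GFP-positive libraries stood far above both GFP-negative ones, and the GFP-positive pair differed from each other by a factor of 1.05. The means were 2146 ± 68.4 CPM in GFP-positive and 114 ± 41.3 CPM in GFP-negative cells (SD, n = 2 each), an 18.9-fold difference. Its log2 fold change was 4.24 ± 0.47 (SE; 95% interval 3.16 to 5.32; adjusted p = 0.0107, edgeR's quasi-likelihood test with Benjamini-Hochberg adjustment). Leaving out 1 library at a time gave log2 fold changes of 3.85 to 4.67, and the adjusted p became 0.0793 when GFP-positive replicate 3 was dropped and 0.0711 when GFP-negative replicate 6 was dropped.

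Per kilobase of exonic sequence, Calb2 ranked 3 in each GFP-positive library among 17924 genes, against ranks 1003 and 680 in the GFP-negative libraries. It was still read in GFP-negative cells, with 3531 and 5116 counts. Markers of other cells that carry calretinin are given beside it; their part in the difference was not tested. The 12 ganglion cell markers, led by Nefl, summed to 250 and 126 CPM in the GFP-positive libraries, against 339 and 382 CPM in the GFP-negative libraries. These markers were mixed. Rbpms had 28.9 and 26.0 CPM in the GFP-positive libraries, against 10.1 and 7.35 CPM in the GFP-negative libraries. Pou4f3 and Isl2 were also higher in both GFP-positive libraries. Nefl, Nefm, Nefh, Pou4f2 and Slc17a6 were lower in both, and the ranges of Pou4f1, Thy1, Sncg and Atoh7 overlapped. The 8 starburst markers, led by Isl1, summed to 171 and 251 CPM in the GFP-positive libraries, against 157 and 74.7 CPM in the GFP-negative libraries. Of the 3 cholinergic genes in that list, Chat had 121 and 0 counts in the GFP-positive libraries, against 35 and 67 in the GFP-negative libraries. Slc18a3 had 329 and 71 counts in the GFP-positive libraries, against 133 and 54 in the GFP-negative libraries, and Slc5a7 had 0 counts in both GFP-positive libraries, against 34 and 77. The list did not move one way: in CPM, Isl1 and Sox2 were higher and Slc5a7, Megf10 and Megf11 lower in both GFP-positive libraries, while the ranges of Chat, Slc18a3 and Fezf1 overlapped. No ganglion or starburst marker passed in edgeR or limma-voom. At an unadjusted p under 0.05 in edgeR, 1 ganglion marker was higher and 2 lower, and 1 starburst marker was higher and 2 lower. DESeq2 called 1 ganglion marker higher and 1 lower, and 1 starburst marker lower.

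Calb1, which encodes calbindin (ENSMUSG00000028222, plus strand, chr4:15881264-15908064), had 25.2 and 4.04 CPM in GFP-positive replicates 2 and 3, against 12.9 and 15.4 CPM in GFP-negative replicates 2 and 6. The GFP-positive libraries lay on either side of the GFP-negative pair and differed from each other 6.25-fold. Its log2 fold change was 0.05 ± 0.71 (SE; 95% interval -1.57 to 1.67; adjusted p = 0.991, edgeR's quasi-likelihood test with Benjamini-Hochberg adjustment). The direction turned when a library was left out, with a log2 fold change of -1.83 when GFP-positive replicate 2 was dropped and -0.14 when GFP-negative replicate 2 was dropped. The 5 horizontal cell markers, led by Ret, summed to 50.9 and 26.3 CPM in the GFP-positive libraries, against 37.1 and 23.9 CPM in the GFP-negative libraries. Within the GFP-positive fraction, Lhx1, Onecut1, Gja10 and Ret were lower in replicate 3 than in replicate 2, as Calb1 was, with Gja10 at 0 counts in replicate 3. Onecut2 differed the other way, with 10.7 and 19.0 CPM in GFP-positive replicates 2 and 3, against 7.24 and 4.47 CPM in GFP-negative replicates 2 and 6. Their part in the spread of Calb1 was not tested.

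Pvalb, which encodes parvalbumin (ENSMUSG00000005716, minus strand, chr15:78191114-78206400), was close to the detection floor. It had 9 and 0 counts in GFP-positive replicates 2 and 3, against 8 and 3 counts in GFP-negative replicates 2 and 6. A count of 3, the floor allowed by a count of 0, equals 0.0631 CPM in GFP-positive replicate 3, so no difference was detectable at this depth. Such floors cover counting error only.

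Necab1 and Necab2 encode neuronal EF-hand proteins that bind partners at the membrane, and NECAB2 is known to bind an adenosine receptor. Necab1 (ENSMUSG00000040536, minus strand, chr4:14952245-15149794) had 331 and 109 CPM in GFP-positive replicates 2 and 3, against 357 and 596 CPM in GFP-negative replicates 2 and 6. GFP-positive replicate 2 came close to GFP-negative replicate 2, and the GFP-positive libraries differed 3.03-fold from each other. The log2 fold change of Necab1 was -1.12 ± 0.53 (SE; adjusted p = 0.430, edgeR's quasi-likelihood test with Benjamini-Hochberg adjustment). Necab2 (ENSMUSG00000031837, plus strand, chr8:119446719-119472640) had 33.1 and 32.1 CPM in GFP-positive replicates 2 and 3, against 85.1 and 113.6 CPM in GFP-negative replicates 2 and 6. Its GFP-positive libraries were nearly equal and both GFP-negative libraries were well above them. The log2 fold change of Necab2 was -1.61 ± 0.31 (SE; 95% interval -2.32 to -0.90) and just missed the threshold (adjusted p = 0.0576, same test). Necab2 passed in 4 of 15 alternative analyses. The adjusted p was 0.0400 under relative log expression scaling and 0.0469 under upper-quartile scaling. It was 0.0351 with a filter of over 5 CPM in 2 libraries and 0.000321 in DESeq2. Necab2 did not pass with no filter (adjusted p = 0.111), in limma-voom (0.0829) or in edgeR's legacy fit (0.115). Leaving out 1 library at a time gave log2 fold changes of -1.86 to -1.38. The ratio of Necab1 to Necab2 per kilobase was 3.99 and 1.36 in the GFP-positive libraries, against 1.68 and 2.10 in the GFP-negative libraries, and these ranges overlapped. Necab1 shares 410 exonic bases with the antisense gene Gm11837, which had 74 to 106 counts, and the labels do not say whether counting used strand.

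Pcp4l1 and Pcp4 are paralogs that encode small IQ-motif proteins, and their levels lay on opposite sides between the fractions. Pcp4l1 (ENSMUSG00000038370, minus strand, chr1:171173262-171196268) had 51.1 and 29.4 CPM in GFP-positive replicates 2 and 3, against 337 and 586 CPM in GFP-negative replicates 2 and 6. Both GFP-negative libraries were far above both GFP-positive ones. The means were 40.3 ± 15.4 CPM in GFP-positive and 461 ± 176 CPM in GFP-negative cells (SD, n = 2 each), 11.5-fold higher in GFP-negative cells. Its log2 fold change was -3.52 ± 0.45 (SE; 95% interval -4.55 to -2.49; adjusted p = 0.0131, edgeR's quasi-likelihood test with Benjamini-Hochberg adjustment). The call was less stable than the size: leaving out 1 library at a time gave -3.99 to -3.06, and the adjusted p became 0.0588 when GFP-positive replicate 2 was dropped, 0.165 for GFP-positive replicate 3 and 0.0935 for GFP-negative replicate 6.

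Pcp4 (ENSMUSG00000090223, plus strand, chr16:96467606-96525793) had 62.1 and 87.1 CPM in GFP-positive replicates 2 and 3, against 25.0 and 30.6 CPM in GFP-negative replicates 2 and 6. Both GFP-positive libraries were above both GFP-negative ones, with means 2.68-fold apart. The log2 fold change was 1.43 ± 0.33 (SE; 95% interval 0.67 to 2.18; adjusted p = 0.105, edgeR's quasi-likelihood test with Benjamini-Hochberg adjustment), and Pcp4 passed in 1 of 15 alternatives (DESeq2, adjusted p = 0.00951). The ratio of Pcp4l1 to Pcp4 per kilobase was 0.536 and 0.220 in the GFP-positive libraries, against 8.77 and 12.4 in the GFP-negative libraries. Within each library the pair therefore had Pcp4 ahead in GFP-positive cells and Pcp4l1 ahead in GFP-negative cells. Pcp4 shares 243 exonic bases with Igsf5, which had 0 counts in all 4 libraries.

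The promoters of the pair, from 250 bases before to 50 bases after the annotated start (RefSeq, GRCm38.p6), are printed because their transcripts lay on opposite sides. Capitals mark TATAAA and CCAAT, searched on both strands, so that CCAAT on the other strand reads ATTGG.
Pcp4l1 (minus strand, chr1:171196219-171196518): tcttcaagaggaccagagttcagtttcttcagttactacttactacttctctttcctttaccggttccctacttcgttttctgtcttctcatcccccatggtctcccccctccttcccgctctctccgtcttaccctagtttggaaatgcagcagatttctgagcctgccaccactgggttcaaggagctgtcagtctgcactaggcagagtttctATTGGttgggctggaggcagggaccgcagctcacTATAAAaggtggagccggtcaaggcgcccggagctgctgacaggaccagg
Pcp4 (plus strand, chr16:96467356-96467655): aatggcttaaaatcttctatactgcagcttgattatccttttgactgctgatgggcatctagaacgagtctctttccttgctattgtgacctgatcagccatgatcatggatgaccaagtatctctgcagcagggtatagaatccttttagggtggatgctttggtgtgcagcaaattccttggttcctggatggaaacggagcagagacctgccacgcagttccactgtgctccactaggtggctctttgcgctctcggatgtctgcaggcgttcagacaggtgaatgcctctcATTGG
The Pcp4l1 window holds 1 TATAAA at the annotated start and 1 CCAAT match 34 bases before it. The Pcp4 window holds no TATAAA and 1 CCAAT match at base 46 after the start. Of 32544 promoters of the same length, 13.6% hold TATAAA and 37.4% hold CCAAT. The homeodomain core TAATTA, held by 5.29% of promoters, is in neither window. CpG pairs numbered 8 in the Pcp4l1 window and 6 in the Pcp4 window, beside a median of 7. A match describes letters in these windows and not a bound factor. Of the 10 genes, 6 had a promoter entry; Calb1, Calb2, Necab1 and Ncald had none.

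**Figure D2:**
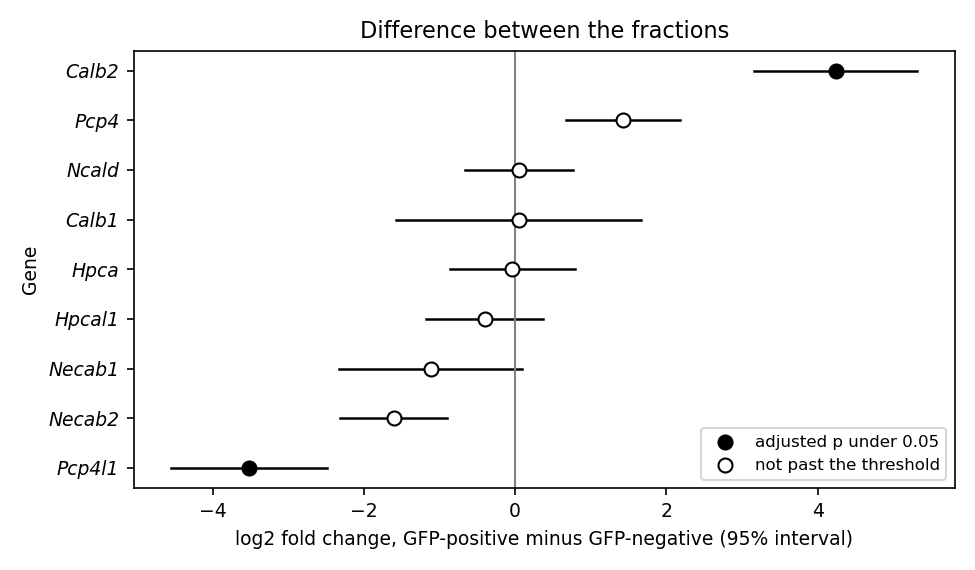
Log2 fold change of the 9 tested genes, GFP-positive minus GFP-negative, with 95% intervals from edgeR's quasi-likelihood fit; filled points have an adjusted p under 0.05. Calb2 at 4.24 and Pcp4l1 at -3.52 pass, while the intervals of Necab2 and Pcp4 lie to 1 side of 0 without passing after adjustment.

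Hpca, Hpcal1 and Ncald encode hippocalcin, hippocalcin-like 1 and neurocalcin delta, sensors of the visinin-like family that carry a myristoyl group. Hpca (ENSMUSG00000028785, minus strand, chr4:129111570-129122036) had 238 and 188 CPM in GFP-positive replicates 2 and 3, against 164 and 273 CPM in GFP-negative replicates 2 and 6. Ncald (ENSMUSG00000051359, minus strand, chr15:37366175-37792570) had 74.6 and 70.3 CPM in the GFP-positive libraries, against 57.0 and 83.1 CPM in the GFP-negative libraries. For both genes the GFP-positive pair lay inside the range of the GFP-negative pair. The log2 fold changes were -0.03 ± 0.36 (SE; 95% interval -0.86 to 0.79; adjusted p = 0.988, edgeR's quasi-likelihood test with Benjamini-Hochberg adjustment) for Hpca and 0.05 ± 0.31 (95% interval -0.67 to 0.77; adjusted p = 0.975, same test) for Ncald. Hpca turned positive in 5 of 15 alternatives, at 0.16 with library-size scaling and 0.38 without GFP-negative replicate 6, and Ncald was -0.26 without GFP-negative replicate 2. Hpcal1 (ENSMUSG00000071379, plus strand, chr12:17690856-17791933) had 21.7 and 27.1 CPM in GFP-positive replicates 2 and 3, against 30.2 and 34.1 CPM in GFP-negative replicates 2 and 6. Its ranges did not overlap but lay close together, with a log2 fold change of -0.40 ± 0.34 (SE; adjusted p = 0.684, same test). The ratio of Hpca to Hpcal1 per kilobase was 6.37 and 4.03 in the GFP-positive libraries, against 3.14 and 4.64 in the GFP-negative libraries, with overlapping ranges.

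The order of levels between the genes can be read only per length. In GFP-positive cells Calb2 came first, at 1231 ± 39.2 CPM per kilobase (SD, n = 2). Hpca at 73.0 ± 12.2, Pcp4 at 72.7 ± 17.2, Necab1 at 42.0 ± 29.9 and Pcp4l1 at 25.5 ± 9.74 CPM per kilobase followed, each overlapping the next. Necab2 at 15.6 ± 0.36 and Hpcal1 at 14.4 ± 2.24 CPM per kilobase overlapped as well, and Ncald at 8.44 ± 0.358, Calb1 at 3.02 ± 3.09 and Pvalb at 0.0946 CPM per kilobase came last. In GFP-negative cells Pcp4l1 came first, at 292 ± 112 CPM per kilobase. Necab1 at 91.0 ± 32.3, Hpca at 74.8 ± 26.5, Calb2 at 65.2 ± 23.7 and Necab2 at 47.4 ± 9.63 CPM per kilobase followed and overlapped in turn. Pcp4 at 27.1 ± 3.91, Hpcal1 at 19.0 ± 1.62, Ncald at 8.16 ± 2.15, Calb1 at 2.92 ± 0.377 and Pvalb at 0.132 CPM per kilobase closed the order. With the length of the longest coding transcript in place of all exons, 5 of 10 genes kept their rank in GFP-positive cells and 8 of 10 in GFP-negative cells. The first place went to the same gene under both lengths in each fraction.

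Expressed as shares of the summed level per kilobase of the 10 genes, Calb2 made up 81.1% and 84.6% in the GFP-positive libraries, against 10.1% and 10.5% in the GFP-negative libraries. Pcp4l1 made up 2.18% and 1.25% in the GFP-positive libraries, against 44.6% and 47.7% in the GFP-negative libraries. The ratio of Calb2 to Pcp4l1 per kilobase was 37.1 and 67.5 in GFP-positive replicates 2 and 3, against 0.227 and 0.221 in GFP-negative replicates 2 and 6. A share depends on the other genes in the sum, so the smaller share of Hpca, 5.50% and 4.33% in the GFP-positive libraries against 11.71% and 12.02% in the GFP-negative libraries, stood beside overlapping levels. Without Calb2, the sum was 255 ± 36.3 CPM per kilobase in GFP-positive and 563 ± 188 CPM per kilobase in GFP-negative cells (SD, n = 2 each).

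**Figure D3:**
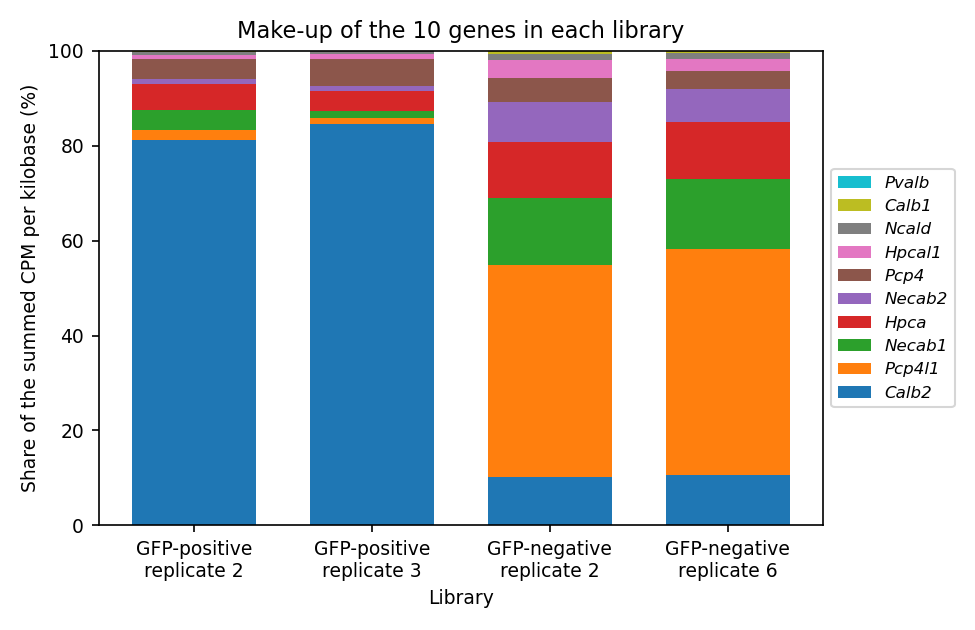
Share of the summed CPM per kilobase of the 10 genes taken by each gene, 1 bar per library, GFP-positive left of GFP-negative. Calb2 fills 81.1% and 84.6% of the GFP-positive bars, and Pcp4l1 fills 44.6% and 47.7% of the GFP-negative bars.

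Genes with the most similar profile over the 4 libraries were found by Euclidean distance between mean-centred log2(CPM + 0.5) values, over 8486 genes with a mean of at least 20 CPM. Nearest to Calb2 were Igfbp7 at a distance of 0.497, Gbx2 at 0.592, A730009L09Rik at 0.811, Gpc3 at 1.08 and Klhl14 at 1.21 log2 units. Nearest to Pcp4l1 were Kcnip1 at 0.145, Grm8 at 0.170, Shisa8 at 0.194, Lrrtm1 at 0.283 and Nr4a2 at 0.295 log2 units. Igfbp7 had 316 and 311 CPM in the GFP-positive libraries, against 8.37 and 14.4 CPM in the GFP-negative libraries. Over 4 libraries in 2 fractions, such distances describe a shared high and low fraction and little more.

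Beyond the 10 genes, 85 other genes of calcium binding and handling were read from 4 lists, and 82 were tested. In GFP-positive cells 1 rose and 2 fell, beside the 0.234% and 0.87% of all genes given above, and their median log2 fold change was -0.20, beside 0.04 for all genes. Among other sensors, KChIPs and CaBPs, 1 of 19 tested genes rose and 1 fell, with a median log2 fold change of 0.26. DESeq2 called 2 higher and 2 lower, limma-voom 1 higher and 1 lower, and 5 were higher and 6 lower at an unadjusted p under 0.05 in edgeR. Kcnip4, an EF-hand subunit of A-type potassium channels, had 232 and 146 CPM in GFP-positive replicates 2 and 3, against 28.5 and 25.6 CPM in GFP-negative replicates 2 and 6. Its paralog Kcnip1 had 44.3 and 26.5 CPM in the GFP-positive libraries, against 276 and 463 CPM in the GFP-negative libraries. The fractions did not overlap for either gene, as for 43.8% of all genes tested, and the paralogs lay on opposite sides, as Pcp4 and Pcp4l1 did. The log2 fold changes were 2.80 ± 0.36 for Kcnip4 and -3.39 ± 0.43 for Kcnip1 (SE; adjusted p = 0.0125 for each, edgeR's quasi-likelihood test with Benjamini-Hochberg adjustment). For Kcnip4 the adjusted p became 0.0603 when GFP-positive replicate 3 was dropped and 0.174 when GFP-negative replicate 6 was dropped. For Kcnip1 it became 0.0543 when GFP-positive replicate 2 was dropped, 0.154 for GFP-positive replicate 3 and 0.0935 for GFP-negative replicate 6, and it was 0.0571 in the legacy fit.

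Rcvrn, the photoreceptor sensor recoverin, had the highest level per kilobase of the same list, with 209.6 and 467 CPM in GFP-positive cells, against 160.3 and 75.2 CPM in GFP-negative cells (adjusted p = 0.255, edgeR's quasi-likelihood test with Benjamini-Hochberg adjustment). Its libraries fall in the same order as the rod marker sums given above, whose part in this difference was not tested. Among calmodulins and their targets, 0 of 26 tested genes rose and 1 fell, with a median log2 fold change of -0.34. DESeq2 called 2 higher and 3 lower in this list, limma-voom called none, and 3 were higher and 7 lower at an unadjusted p under 0.05 in edgeR. The gene that fell was Pde1a, a phosphodiesterase switched on by calmodulin, with 19 and 0 counts in GFP-positive replicates 2 and 3, against 403 and 312 counts in GFP-negative replicates 2 and 6 (adjusted p = 0.0342, same test). Its adjusted p lay between 0.0551 and 0.193 when any 1 library was left out, and was 0.0506 with no filter, 0.240 in limma-voom and 0.281 in the legacy fit. Calm2, a calmodulin gene and the highest of the list, had 1006 and 1039 CPM in GFP-positive cells, against 1013 and 1576 CPM in GFP-negative cells (adjusted p = 0.792).

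In the list of EF-hand buffers and S100 proteins, 0 of 12 tested genes passed in either direction, with a median log2 fold change of 0.23. None passed in DESeq2 or limma-voom, and 1 was lower at an unadjusted p under 0.05 in edgeR. Scgn, which encodes the EF-hand protein secretagogin, was the highest, with 44.4 and 79.7 CPM in GFP-positive cells, against 47.8 and 12.9 CPM in GFP-negative cells, and its ranges overlapped (adjusted p = 0.511, edgeR's quasi-likelihood test with Benjamini-Hochberg adjustment). Of the pumps, exchangers and store proteins, 0 of 25 tested genes passed, with a median log2 fold change of -0.45. In that list 2 were higher and 4 lower at an unadjusted p under 0.05 in edgeR, limma-voom called none, and DESeq2 called 1 higher and 1 lower. Calr, the calcium-binding chaperone calreticulin of the endoplasmic reticulum, was the highest, with 421 and 494 CPM in GFP-positive cells, against 532 and 1531 CPM in GFP-negative cells (adjusted p = 0.396, same test).

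**Figure D4:**
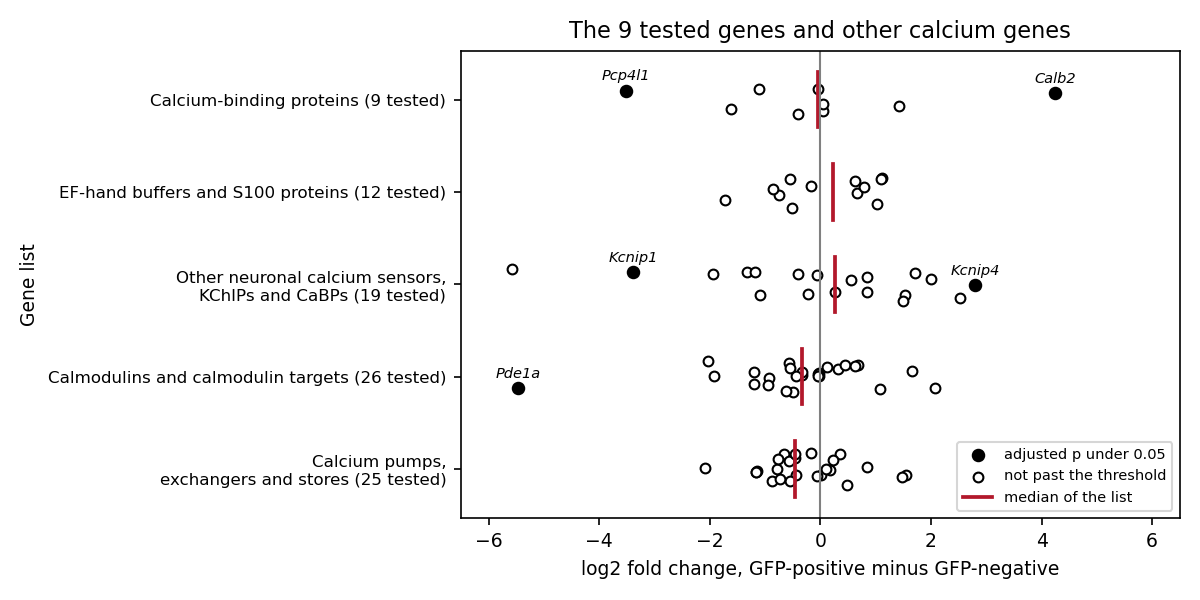
Log2 fold change, GFP-positive minus GFP-negative, of the 9 tested genes and of 4 lists of other calcium genes; filled points have an adjusted p under 0.05 and red bars are list medians. Calb2 and Kcnip4 lie to the right and Pcp4l1, Kcnip1 and Pde1a to the left.

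The 10 genes lie on 6 chromosomes. Necab1 and Calb1 lie 0.7315 Mb apart on chromosome 4, with log2 fold changes of -1.12 ± 0.53 and 0.05 ± 0.71 (SE). Their intervals, -2.32 to 0.09 for Necab1 and -1.57 to 1.67 for Calb1, overlapped, so these values cannot be told apart. Calb2 and Necab2 lie 9.2785 Mb apart on chromosome 8, with log2 fold changes in opposite directions, 4.24 ± 0.47 and -1.61 ± 0.31 (SE).

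**Figure D5:**
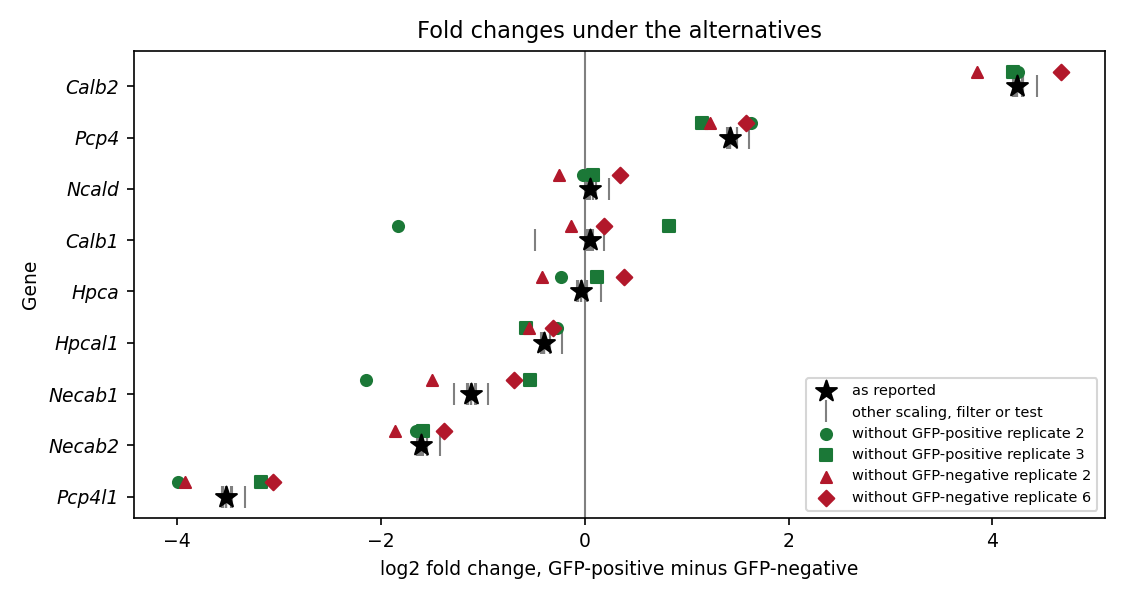
Log2 fold change of the 9 tested genes under each alternative analysis. Calb2 stays between 3.85 and 4.67 and Pcp4l1 between -3.99 and -3.06, whereas Calb1, Ncald and Hpca cross 0.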

How the data were processed

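Cells of dissociated retinas were sorted on fluorescence, and cDNA was made with a SMART-Seq low-input kit from nanoprep RNA, per the labels' protocols. Groups follow the fluorescence label. The labels do not say whether replicate 2 is 1 animal in both fractions. All 4 libraries of the series were used.

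Raw counts per Ensembl gene, as the authors deposited them, went into the main test. The authors also deposited a second table, headed as CPM per the file headers, whose values are a scaled signal: dividing each column by its own step gave whole reads (tolerance 0.01) for 100% of values, and columns summed to 907048 to 1148160. edgeR called 185 of 18305 genes on these recovered reads. Its GFP row held 8220 and 5237 reads in GFP-positive libraries, against 410 and 714 in GFP-negative libraries. The submitters' processing notes list STAR 2.7.3a, Trimmomatic, MultiQC, limma and GRCm38, without saying what each did. The sources used here do not give the counting tool, its annotation or its strand setting.

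The test was edgeR 4.0.16 (R 4.3.3) with TMM factors of 0.873 to 1.10, filterByExpr (minimum count 10, minimum total 15), glmQLFit (robust, legacy = FALSE) and glmQLFTest, GFP-positive minus GFP-negative, on 2 residual and, in the median, 6.59 prior degrees of freedom. Of 27925 genes with a count, 17940 were tested; a call needed a Benjamini-Hochberg adjusted p under 0.05. SE is the size of the log2 fold change divided by the root of F. A count of 3 equals 0.0631 to 0.0838 CPM by library; floors cover counting error only. Exonic lengths and coordinates came from GENCODE mouse release 21 (GRCm38), in which 55230 of 55471 gene IDs were found. The steps were tested on simulated data. The default of this edgeR version is the legacy quasi-likelihood fit; it was run first and called 48 genes, and legacy = FALSE, which called 198, was then taken as the main fit to match an earlier analysis of these data.

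The genes and lists were chosen with earlier results of these data known. Named are all 10 genes, Gbx2, each list gene that passes and the list gene with the highest level per kilobase. Also named are the 5 genes nearest in profile to each gene that passes, and the top gene of each marker list given. Single pan-amacrine, ganglion, horizontal and starburst markers were chosen after their values were seen. Alternatives were other scalings and filters, DESeq2 1.42.0, limma-voom (limma 3.58.1), a non-robust fit, leaving out rod and mitochondrial genes or each library, and, chosen after seeing the data, recovered reads and edgeR's legacy fit.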

Additional observations from a re-analysis of the deposited data

How the results depend on the processing

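Of 255 fold changes under an alternative, 218 kept their direction and side of the threshold. Genes called numbered 198, against 106 with no filter, 787 in DESeq2, 92 in limma-voom and 48 in edgeR's legacy quasi-likelihood fit, and 1 to 336 when 1 library was left out: GFP-negative replicate 6 out gave 1, GFP-positive replicate 3 out gave 5, GFP-positive replicate 2 out gave 108 and GFP-negative replicate 2 out gave 336. Calls among the 10 genes were 2 higher in DESeq2 and 0 to 1 higher with 1 library left out. They were 2 lower under relative log expression scaling, upper-quartile scaling, the filter of over 5 CPM and DESeq2, 0 lower in the legacy fit, and 0 to 1 lower with 1 library left out. Calls over the calcium lists were 2 higher under relative log expression and upper-quartile scaling, 3 higher with library-size scaling and the filter of over 5 CPM, 5 higher in DESeq2, and 0 to 1 higher with 1 library left out. They were 3 lower, against 2 in the main analysis, under relative log expression, upper-quartile and library-size scaling and the filter of over 5 CPM, 1 lower with no filter and in limma-voom, 6 lower in DESeq2, 0 lower in the legacy fit and 0 to 3 lower with 1 library left out.

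The log2 fold change of Gbx2 ran from 3.25 to 4.26 with 1 library left out. Hpca reversed to 0.0204 under upper-quartile scaling, 0.16 with library-size scaling and 0.0254 with the filter of over 5 CPM, and ran from -0.42 to 0.38 with 1 library left out. Calb1 reversed to -0.49 in limma-voom and ran from -1.83 to 0.83, Ncald from -0.26 to 0.35 and Calm2 from -0.68 to 0.0163 with 1 library left out. Level ranks in GFP-positive cells held for 5 of 10 genes with the longest transcript. The causes of these shifts were not tested. Of all calls, 21.2% were higher, against 26.8% with library-size scaling, which shifts the median log2 fold change by 0.17.

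No paired analysis was possible because the fractions share only replicate number 2. Fits without 1 library assume that the lone library of a fraction varies like the others. Calls rest on 2 libraries per fraction and a common coefficient of variation of 55.4% between libraries. The count filter kept only Pvalb of the 10 genes out of the test.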

Other observations

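Of the calcium lists, 3 genes had an adjusted p of at least 0.05 and under 0.1, a limit chosen after their values were seen. Pde1c, a calmodulin-activated phosphodiesterase related to Pde1a, had 64.9 and 57.6 CPM in GFP-positive replicates 2 and 3, against 19.2 and 19.8 CPM in GFP-negative replicates 2 and 6. Its log2 fold change was 1.65 ± 0.32 (SE; adjusted p = 0.0545, edgeR's quasi-likelihood test with Benjamini-Hochberg adjustment). Gap43, a calmodulin-binding protein of growing axons, had 105.4 and 99.0 CPM in GFP-positive libraries, against 279 and 499 CPM in GFP-negative libraries (log2 fold change -1.93 ± 0.38, SE; adjusted p = 0.0617, same test). Hpcal4, a relative of Hpca, had 36.5 and 29.2 CPM in GFP-positive libraries, against 75.1 and 178.8 CPM in GFP-negative libraries (log2 fold change -1.95 ± 0.43, SE; adjusted p = 0.0889, same test). Pde1c was higher and Gap43 and Hpcal4 were lower in both GFP-positive libraries. Such separation says little here, because the 3 were picked by adjusted p and the ranges of 43.8% of all genes tested did not overlap.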
